A study of Mus musculus with 16 samples.

Results

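The motile cilium and intraflagellar transport genes are 65 of the 24306 genes measured on these arrays, and were chosen by name: every gene whose platform symbol is Dnah, Dnai, Dnaic, Dnali, Dnaaf, Tekt, Rsph, Ift or Cfap followed directly by a number. They comprise 14 dynein heavy chains, 3 dynein intermediate or light intermediate chains, 4 dynein assembly factors, 5 tektins, 7 radial spoke proteins, 18 cilia and flagella associated proteins and 14 intraflagellar transport (Ift) proteins, of which 3 belong to the IFT-A complex and 11 to IFT-B. The rule reads names alone and uses no measured value, although it was chosen with earlier results of these data known. The members were represented by 139 array features, and for the 41 genes with several features the one with the highest mean over all arrays stands for the gene.

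RNA from lung homogenate of 16 mice aged 8 weeks was hybridised to single-colour Agilent arrays. Both sexes of Fra-2 transgenic (TG) and wild-type (WT) mice were used, which gave 4 groups of 4 animals. The TG mice were heterozygous (tg/wt) for a transgene that overexpresses the AP-1 transcription factor Fra-2 ectopically and carried a GFP reporter, and the controls were WT littermates, all of a line backcrossed to C57BL6/J. The promoter that drives the transgene is not given in the sources used here, so the cells that express it cannot be named, and the right lung was homogenised whole. In such bulk RNA, fewer cells of a type and less RNA per cell cannot be told apart.

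Motile cilia are the beating extensions of the multiciliated cells that line the airways and move mucus towards the throat. Their core, the axoneme, is a ring of doublet microtubules on which dynein motors walk, with radial spokes that pass signals from the centre and tektins that stiffen the doublets. Intraflagellar transport is the train of protein complexes that carries cargo along the cilium, outwards with IFT-B and kinesin and back with IFT-A and dynein. It also serves the single, non-motile primary cilium found on most cell types, whereas the axonemal dyneins and spokes mark cells with motile cilia.

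The genotype labels could be checked on Fosl2, the gene that encodes Fra-2, which had 2 features. On the dimmer feature the WT mice had log2 intensities from 2.39 to 4.91 and the TG mice from 6.56 to 10.66, a difference of 4.77 ± 0.45 (SE, n = 8 per genotype, limma, adjusted p = 2.12e-05). The groups did not overlap, and since most WT values lay where a feature without its transcript can read (the Y-linked gene Uty gave 2.66 to 4.09 in females), the exact size of this difference is not known. The brighter feature had 9.55 ± 0.50 (SD, n = 8) in WT and 9.40 ± 0.44 (n = 8) in TG mice, and which transcripts each feature reads is not given. Markers of the lung, such as Sftpc of alveolar type 2 cells (15.97 in WT) and Scgb1a1 of club cells (15.98 in WT), lay near the top of the scale, and Foxj1, the master transcription factor of motile cilia, was at 9.75 ± 0.37 (SD, n = 8) in WT and 9.98 ± 0.60 (n = 8) in TG mice. Testis genes, which could bring axonemal transcripts of sperm, had list means of only 3.55 to 4.35 over the mice. Correlation with the other arrays of the group was lowest in TG female 1, TG female 4 and TG female 3 (0.970 to 0.974), and among WT mice in WT male 1 (0.980). WT male 1 also lay apart from the other WT mice on the first principal component (11.5, against -45.6 to -27.1), and had the highest WT value on both Fosl2 features. On that component TG females 1 and 4 lay furthest out, at 89.5 and 76.6. The other TG mice lay at 4.02 to 30.64, so that WT male 1 was within the range of the TG mice. TG females 1 and 4 and WT male 1 are the 3 arrays that stood apart, and results are given with and without them where they matter.

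The sequence shown first is that of 4 promoters, chosen to show a member that passed the test (Dnaaf2), 2 axonemal members that followed the shared pattern over mice closely and hold 2 matches each (Dnah10, Tekt1), and 1 transport gene (Ift57). Each runs from 250 bases before to 50 after the annotated start in RefSeq (mouse build GRCm38.p6), 5′ to 3′ on the gene's strand, with the letters GTTGCC or their reverse complement GGCAAC in capitals. These letters are the core of the site bound by RFX factors, which are known to switch on ciliary genes.
Dnaaf2, chr12:69198380-69198679, minus strand: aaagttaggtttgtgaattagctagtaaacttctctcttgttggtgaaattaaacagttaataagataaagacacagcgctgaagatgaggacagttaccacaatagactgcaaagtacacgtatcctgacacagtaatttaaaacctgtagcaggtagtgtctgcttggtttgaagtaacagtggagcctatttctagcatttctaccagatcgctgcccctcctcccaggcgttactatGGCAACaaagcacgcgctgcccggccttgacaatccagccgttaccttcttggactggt
Dnah10, chr5:124724835-124725134, plus strand: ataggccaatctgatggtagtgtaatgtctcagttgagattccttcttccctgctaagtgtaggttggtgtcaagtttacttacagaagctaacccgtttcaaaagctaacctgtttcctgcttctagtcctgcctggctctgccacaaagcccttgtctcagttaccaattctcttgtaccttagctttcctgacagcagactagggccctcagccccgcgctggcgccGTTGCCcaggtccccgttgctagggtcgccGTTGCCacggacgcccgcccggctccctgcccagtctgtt
Tekt1, chr11:72361833-72362132, minus strand, one of 2 windows of this gene: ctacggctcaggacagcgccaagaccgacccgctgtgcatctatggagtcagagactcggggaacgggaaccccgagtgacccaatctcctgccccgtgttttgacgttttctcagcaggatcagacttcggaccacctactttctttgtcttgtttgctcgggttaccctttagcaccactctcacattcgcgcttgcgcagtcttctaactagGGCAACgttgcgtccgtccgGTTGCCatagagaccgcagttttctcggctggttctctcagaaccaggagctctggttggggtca
Ift57, chr16:49699044-49699343, plus strand: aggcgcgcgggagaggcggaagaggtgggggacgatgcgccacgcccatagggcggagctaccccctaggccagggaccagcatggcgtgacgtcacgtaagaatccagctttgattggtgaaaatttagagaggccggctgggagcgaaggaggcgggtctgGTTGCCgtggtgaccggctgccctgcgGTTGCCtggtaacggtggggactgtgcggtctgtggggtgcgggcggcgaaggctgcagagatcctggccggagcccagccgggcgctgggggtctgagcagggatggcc
The match in Dnaaf2 began at base -9 from the start, those in Dnah10 at -20 and 10, those in Tekt1 at -35 and -15, and those in Ift57 at -87 and -60. A promoter window was found for 55 of the 65 members, and 20 of these genes (36.4%) held GTTGCC on either strand in at least 1 of their windows, compared with 14.1% of the 27025 genes of the table. The share was 15 of 44 among members other than the Ift genes and 5 of 11 among Ift members. The forkhead core TGTTTAC, the type of site that Foxj1 reads, was present on either strand in 4 of 55 members (7.27%) and 4.05% of all genes. The letters TGACTCA or TGAGTCA, the site of AP-1 dimers such as those that contain Fra-2, were present in 3 of 55 members (5.45%) and 5.95% of all genes. A match is a description of the letters in these windows.

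Between the genotypes, few of the members differed. Compared with WT, 2 of the 65 members were higher in TG lungs (Cfap97 and Dnaaf2), none was lower and 63 did not pass (limma over all genes, adjusted p under 0.05), where 13.1% of all 24306 genes passed, 6.05% higher and 7.08% lower. At an unadjusted p under 0.05, 4 members were higher and 5 were lower. The share of all genes at this unadjusted cut was not counted, here or below. No excess or lack among the members can be read from such counts. A two-sided exact Wilcoxon rank sum test, adjusted over all genes, also called Cfap97 (adjusted p = 0.009) and Dnaaf2 (adjusted p = 0.042) and no other member. The median difference between TG and WT over the 65 members was 0.02 on the log2 scale, with a range from -0.69 to 0.71, and the median over all genes was -0.03. For 60 of the 65 members the 95% interval of the difference lay wholly within 1 log2 unit of 0, that is under a 2-fold change, and for 25 members within 0.5. The 60 include 6 members, named below, that read no higher than a feature without its transcript can. For these a narrow interval cannot bound a change of the transcript.

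**Figure D1:**
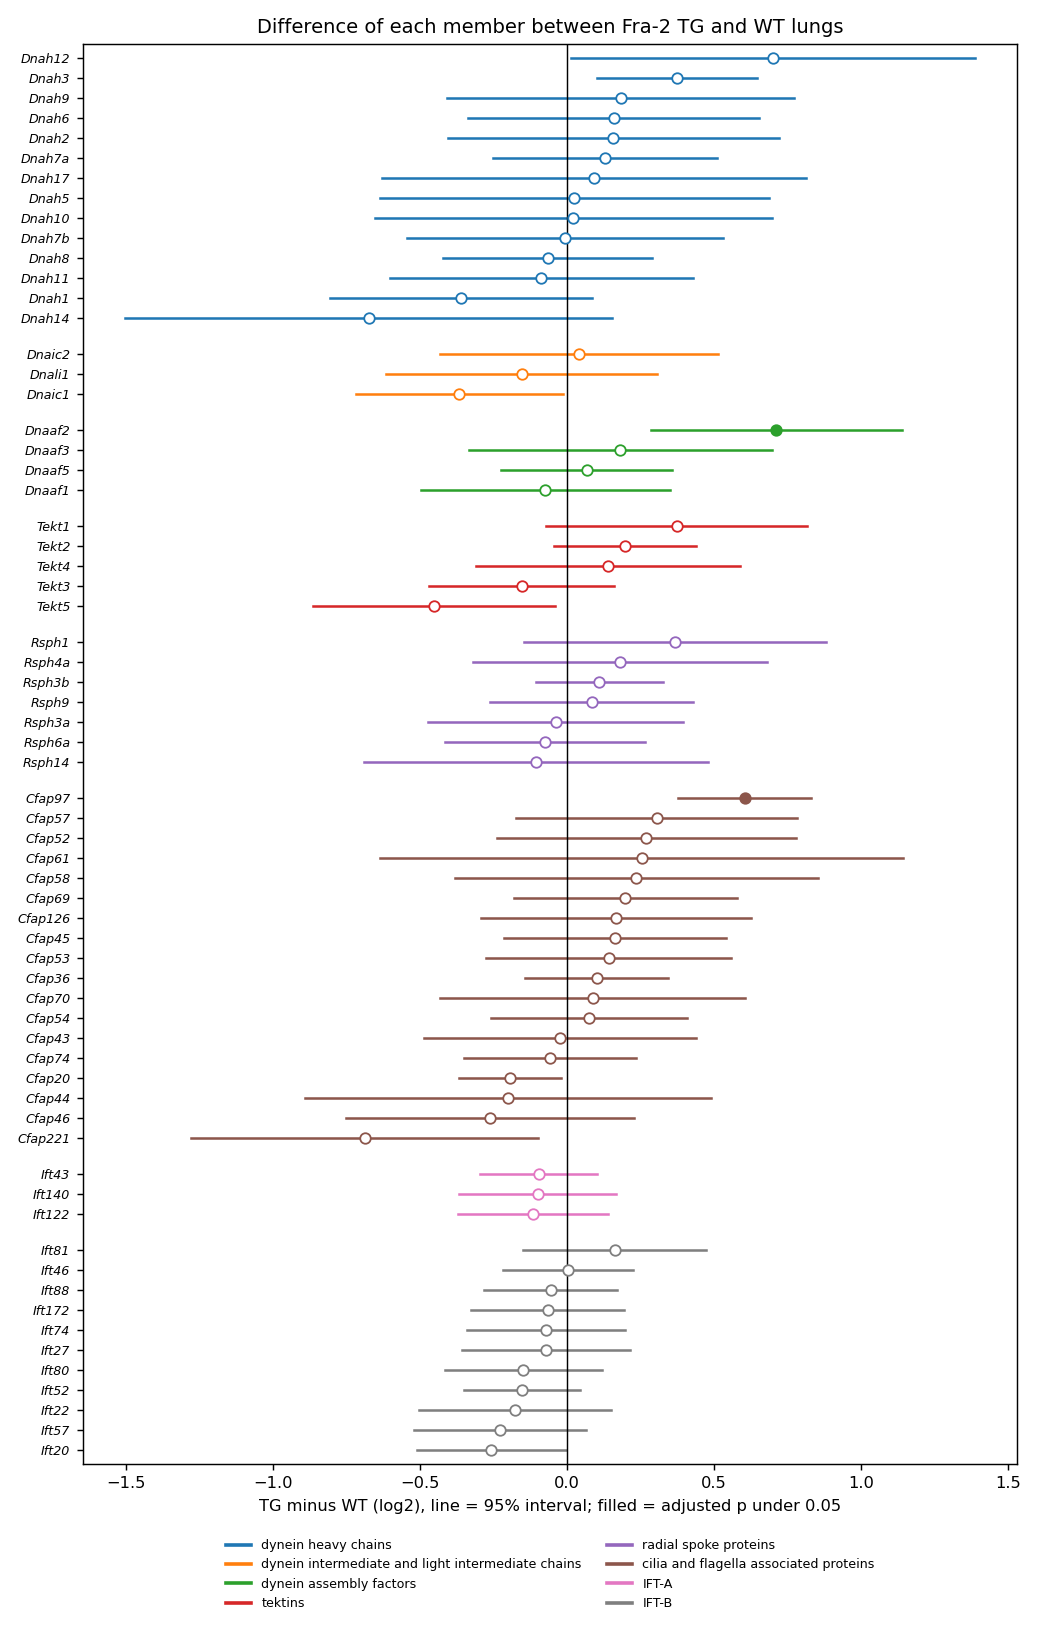
TG minus WT difference of each member on the log2 scale (x axis), with its 95% interval from limma (n = 8 mice per genotype), grouped by role. Filled points are the 2 members with an adjusted p under 0.05, Cfap97 and Dnaaf2; the intervals of Cfap221, Cfap61, Dnaaf2, Dnah12 and Dnah14 reach past 1 log2 unit.

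The dynein heavy chains, the motor subunits of the inner and outer arms, had a median difference of 0.06 and none of 14 passed. Dnah12, an inner arm heavy chain, had the largest rise in mean among them. In WT mice its lowest, median and highest log2 intensities were 5.94, 6.74 and 7.95, and in TG mice 6.72, 7.45 and 9.13. The groups overlapped over most of their range, and the difference was 0.70 ± 0.32 (SE, n = 8, limma, adjusted p = 0.168). Dnah12 had 3 features of nearly equal mean (7.21, 7.17 and 7.09). The dimmer ones differed by only 0.18 ± 0.19 and 0.26 ± 0.22 (SE), so the larger rise is that of 1 feature. Dnah14 had 3.42, 5.25 and 5.77 in WT and 2.82, 4.42 and 5.68 in TG mice, a difference of -0.67 ± 0.39 (SE, adjusted p = 0.279). Dnah6, the heavy chain with the highest mean, had a median of 10.40 and a highest value of 11.33 in WT mice and 9.59, 10.60 and 11.55 in TG mice, so that both the highest and the lowest mouse were TG. Dnah5, a heavy chain of the outer arm whose human counterpart is often mutated in primary ciliary dyskinesia, differed by 0.02 ± 0.31 (SE, adjusted p = 0.970), and its TG mice ranged from 7.25 to 9.92 where WT mice ranged from 7.22 to 9.07.

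Among the smaller dynein subunits, none of 3 passed. Dnaic1, an intermediate chain of the outer arm, had 8.34, 8.68 and 9.02 in WT and 7.86, 8.14 and 8.95 in TG mice, a difference of -0.37 ± 0.16 (SE, n = 8, limma, adjusted p = 0.159). Dnali1, a light intermediate chain of the inner arm, had 9.57, 9.73 and 10.01 in WT mice and 8.57, 9.75 and 10.43 in TG mice. The medians lay side by side while the TG range was several times as wide.

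The assembly factors, which fold and preassemble dyneins in the cytoplasm before they enter the cilium, included 1 of the 2 members that passed. Dnaaf2 had lowest, median and highest values of 6.44, 6.73 and 7.91 in WT and 6.99, 7.47 and 8.55 in TG mice. All WT mice but WT male 1, at 7.91, lay below all 8 TG mice. The difference was 0.71 ± 0.20 (SE, n = 8, limma, adjusted p = 0.031), with 1.23 ± 0.28 in females (adjusted p = 0.011) and 0.20 ± 0.28 in males (adjusted p = 0.882). The female effect exceeded the male effect by 1.03, and this interaction did not pass (adjusted p = 0.331). The call did not hold when any 1 of 9 mice was left out (WT females 1 and 2, WT males 2, 3 and 4, TG females 1 and 4, and TG males 1 and 4), with adjusted p from 0.052 to 0.066, nor without TG females 1 and 4 together (0.50, adjusted p = 0.149). The other assembly factors ranged from -0.07 to 0.18 and did not pass.

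None of the 5 tektins passed. Tekt1, the brightest of them, had 9.97, 10.05 and 10.72 in WT and 9.61, 10.49 and 11.57 in TG mice, a difference of 0.37 ± 0.21 (SE, n = 8, limma, adjusted p = 0.264). Tekt5, a tektin known from sperm flagella, had 5.12, 5.75 and 6.09 in WT and 4.45, 5.36 and 5.87 in TG mice, a difference of -0.45 ± 0.19 (SE, adjusted p = 0.137). A second, dimmer feature of Tekt5 was lower by more, with 5.61 in WT and 4.43 in TG mice (difference -1.18 ± 0.25, adjusted p = 0.008 over all features). None of the 7 radial spoke members passed either. Rsph1, a protein of the spoke head, had 8.69, 8.86 and 9.56 in WT and 8.54, 9.30 and 10.58 in TG mice, and Rsph3b, of the spoke stalk, differed by 0.11 ± 0.10 (SE, adjusted p = 0.518).

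Of the 18 cilia and flagella associated proteins, a mixed group named for its location rather than for 1 function, Cfap97 was higher in TG lungs and 17 did not pass. Its 8 WT mice had 7.66, 7.96, 7.78 and 7.84 in females and 8.03, 7.71, 7.51 and 7.87 in males, and its 8 TG mice 8.37, 8.25, 8.28 and 8.39 in females and 8.77, 8.59, 8.21 and 8.34 in males. The TG and WT mice did not overlap. TG mice lay wholly above WT mice in 1 of 65 members and 0.86% of all genes, and the genotypes were apart in either direction in 1.75%. The difference was 0.60 ± 0.11 (SE, n = 8, limma, adjusted p = 0.003), with 0.51 in females (adjusted p = 0.032) and 0.70 in males (adjusted p = 0.0496). The second feature of Cfap97, of nearly equal brightness, went the other way, from 8.12 in WT to 7.76 in TG mice (-0.36 ± 0.18, adjusted p = 0.220 over all features), and the mean of both features differed by 0.12 (adjusted p = 0.534). The rise is therefore that of 1 feature. Cfap221, a protein of the central pair apparatus, had 3.0, 4.54 and 5.25 in WT and 2.54, 3.87 and 4.75 in TG mice, a difference of -0.69 ± 0.28 (SE, adjusted p = 0.114).

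**Figure D2:**
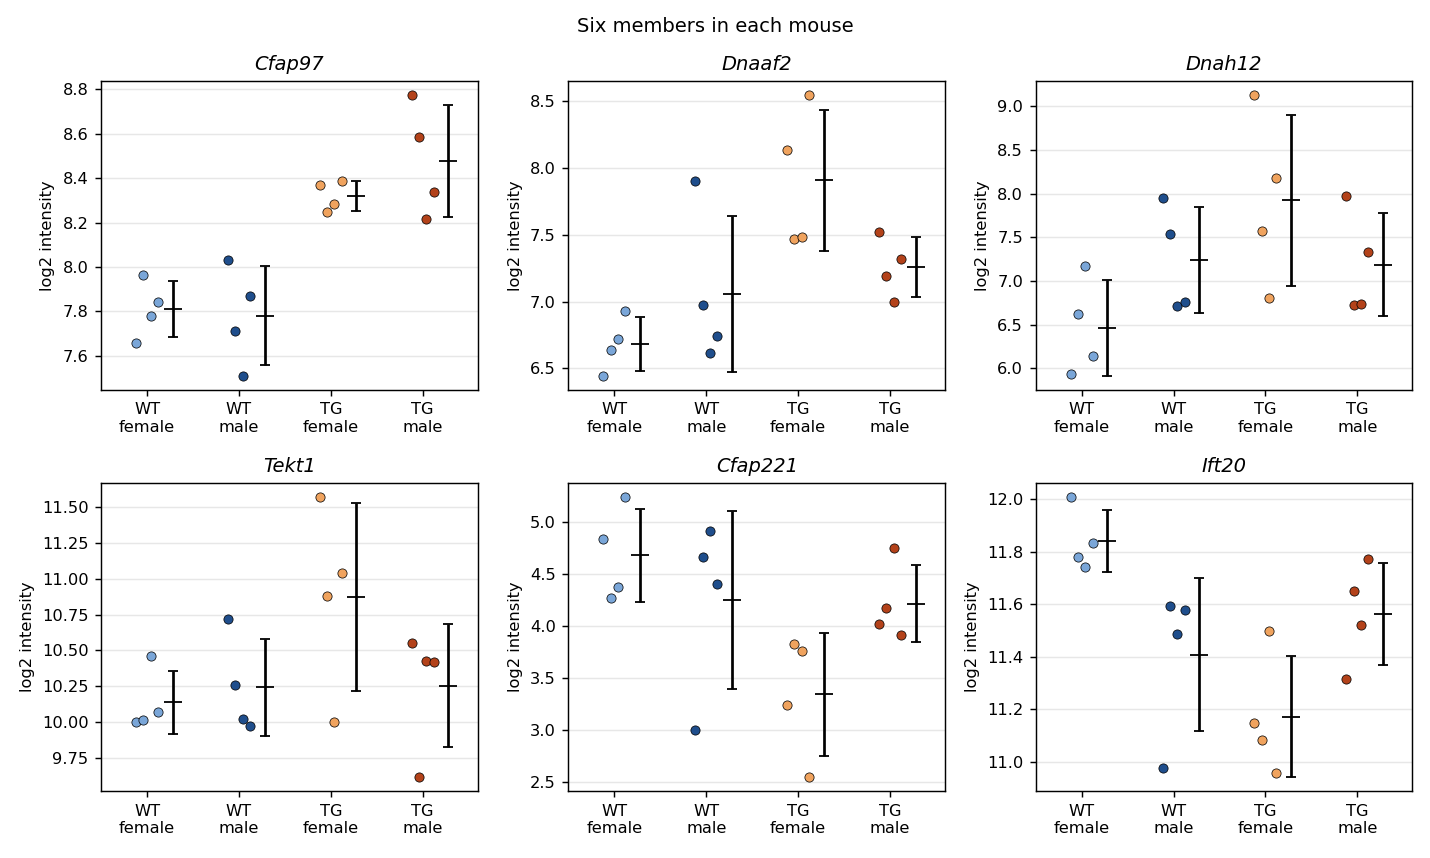
Log2 intensity (y axis) of 6 members in each mouse (points) by group (x axis), with the mean and SD of each group of 4 beside the points. Cfap97 separates the genotypes in both sexes, Dnaaf2 does so but for WT male 1, and Dnah12, Tekt1, Cfap221 and Ift20 overlap.

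Several features of a gene often disagreed. Of the 41 members with more than 1 feature, 26 had features on both sides of 0. Over all 139 member features, 4 passed as higher and 2 as lower (4.32%), compared with 11.3% of all 43941 named features. Besides those of Cfap97, Dnaaf2 and Tekt5, the features that passed were dimmer ones of Cfap36 (0.54 ± 0.14, adjusted p = 0.026), Dnah7b (0.61 ± 0.15, adjusted p = 0.017) and Cfap74 (-0.62 ± 0.18, adjusted p = 0.036), while the brightest feature of each of these 3 genes differed by 0.10, -0.01 and -0.06. Dnah7b also has a near-identical relative, Dnah7a, and the 2 may share signal. For 6 members (Dnaaf1, Dnah1, Dnah17, Dnah3, Rsph6a and Tekt3) the mean lay at or below 4.09, the highest value of the Y-linked gene Uty in a female, a level that a feature reached in mice without its transcript.

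On the brightest feature of each gene, the intraflagellar transport members varied least. Their differences ranged from -0.26 to 0.16 with a median of -0.10, 2 of 14 lay above 0 and none passed. For all 14 the 95% interval lay within 1 log2 unit of 0, and for 11 within 0.5. Ift20, an IFT-B subunit that also works at the Golgi, had 10.97, 11.67 and 12.01 in WT and 10.96, 11.41 and 11.77 in TG mice, a difference of -0.26 ± 0.12 (SE, n = 8, limma, adjusted p = 0.172). Ift43, the brightest IFT-A subunit, had 11.12, 11.47 and 11.75 in WT and 11.14, 11.37 and 11.55 in TG mice. Ift122, another IFT-A subunit, went from 9.14 ± 0.16 (SD, n = 8) to 9.02 ± 0.27 (n = 8). Dimmer features of the Ift members differed more widely, from -0.81 ± 0.31 (SE) for Ift46 to 0.67 ± 0.22 for Ift27, and none passed. The Ift members were also brighter, with a median of their means of 9.26 against 8.13 in the other members. The members other than Ift genes had a median difference of 0.09, with 32 of 51 above 0. Of all genes 46.6% lay above 0.

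Each sex was then compared on its own. In females, Cfap97, Dnaaf2 and Dnah12 were higher and Cfap221 and Ift20 lower in TG mice, 3 and 2 of 65 members where 16.1% of all genes passed, 7.15% higher and 9% lower. In the 4 TG females Ift20 had 11.15, 11.08, 11.50 and 10.96, all below the WT females at 12.01, 11.78, 11.74 and 11.84 (-0.67, adjusted p = 0.016). Dnah12 had 9.13, 7.57, 6.81 and 8.18 in TG females and 5.94, 6.62, 7.17 and 6.14 in WT females (1.46, adjusted p = 0.041), so that TG female 3 lay within the WT range. This call is that of 1 feature of Dnah12, and its dimmer features were not tested singly in females. Cfap221 had 3.24, 3.83, 3.76 and 2.54 in TG females and 4.84, 4.27, 4.38 and 5.25 in WT females (-1.34, adjusted p = 0.031). All 4 TG females lay under 4.09, the level reached by a feature without its transcript, so the exact size of this difference is not known. Without TG females 1 and 4, none of the 65 members passed in females, and over all 24306 genes 213 were higher and 163 lower. Without TG female 3 there were 10 higher members, and over all genes 2220 were higher and 2894 lower. With all mice, 1737 genes were higher and 2188 lower in females. In males, Cfap97 was the only member that passed (of all genes 0.646% passed, 0.309% higher and 0.337% lower), 2 members were higher and 0 lower at an unadjusted p under 0.05, and Cfap97 did not pass when any 1 of 14 of the 16 mice was left out. The median TG effect over the members was 0.21 in females, with 43 of 65 above 0, and -0.08 in males, with 20 above 0, where the median over all genes was -0.02 in each sex. Of all genes 48.2% lay above 0 in females, and the share in males was not counted. The members moved together from mouse to mouse, so these counts can turn on a few mice. The female median depended on single mice, and was 0.07 without TG female 1 (37 of 65 above 0, with a mean difference over the members of -0.001) and 0.37 without TG female 3.

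The difference between the sexes in the TG effect was tested directly, and no member passed (background 0%, as no gene of 24306 did), with 8 members at an unadjusted p under 0.05. Among WT mice no member differed between females and males (0.0165% of all genes did, 0.00411% higher and 0.0123% lower in females), with 2 at an unadjusted p under 0.05, Ift20 and Ift80.

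The mean over the members hid how much single TG mice differed. Averaged over the 51 members other than Ift genes, the log2 level was 7.81 ± 0.14 (SD, n = 8) in WT and 7.86 ± 0.37 (n = 8) in TG mice. The WT mice ranged from 7.62 to 7.98. Among TG mice, TG female 1 had 8.57, TG females 2 and 4 had 8.00 and 8.01, TG male 1 had 7.93, TG male 4 had 7.80, TG male 3 had 7.73, TG female 3 had 7.49 and TG male 2 had 7.38. So 3 TG mice lay above and 2 below the whole WT range. The mean over the 14 Ift members was 9.64 ± 0.05 (SD, n = 8) in WT and 9.54 ± 0.13 (n = 8) in TG mice, where TG female 1 again stood highest at 9.82, and TG female 3 and TG male 2 lowest at 9.40 and 9.42.

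**Figure D3:**
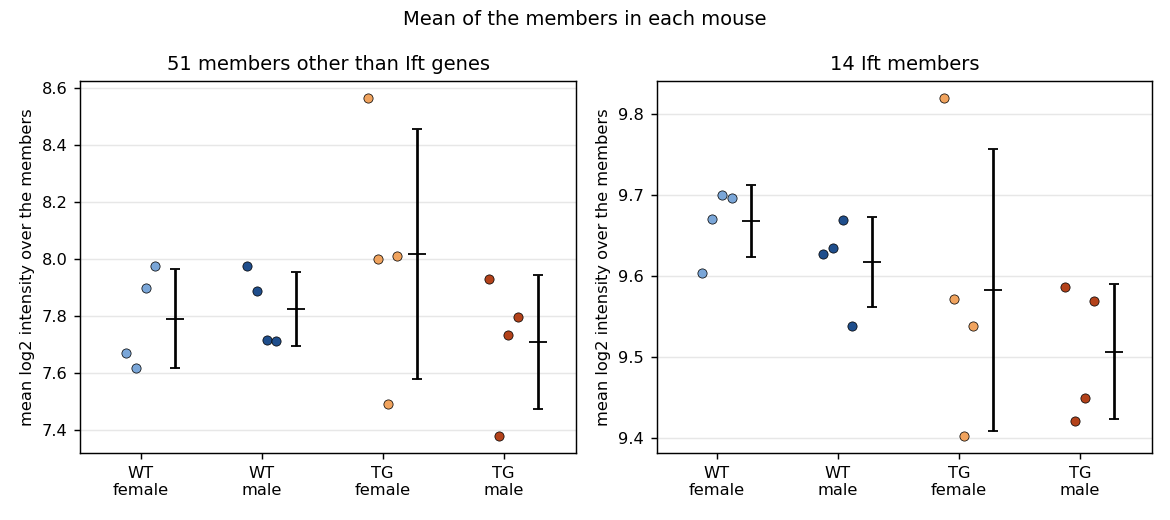
Mean log2 intensity over the 51 members other than Ift genes (left) and the 14 Ift members (right) in each mouse (points), with the mean and SD of each group of 4 mice beside the points. TG female 1 is highest in both panels, and the TG mice spread more widely than the WT mice.

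Gene by gene, TG female 1 was the highest of all 16 mice in 36 of the 65 members, compared with 14.4% of all genes. TG male 2 was the lowest in 23 members (5.76% of all genes) and TG female 3 in 10 (4.80%). Tekt1 shows the pattern, with 11.57 in TG female 1, 11.04 in TG female 4 and 9.61 in TG male 2 against 9.97 to 10.72 in WT mice. For Dnah10, an inner arm heavy chain, TG female 1 had 9.76, TG female 3 had 7.28 and TG male 2 had 7.0, and WT mice ranged from 7.67 to 9.09, with WT male 1 the highest.

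The spread between mice was larger in TG than in WT mice for 53 of 65 members, where this held for 65.4% of all genes. It was so for 45 of 51 members other than Ift genes, with a median SD of 0.33 in WT and 0.59 in TG mice, and for 8 of 14 Ift members, with median SDs of 0.21 and 0.26. Without TG female 1 the count was 44 of 65 (57.6% of all genes), and without TG females 1 and 4 it was 39 of 65 (48.5%). Without the 3 arrays that stood apart it was 46 of 65 (59.5%). In males alone it was 39 of 65 (44.9%) and in females alone 57 of 65 (71.9%). The wider spread was thus greater with TG female 1 than without it, and the share of all 65 members stayed above that of all genes in each of these sets of mice. This did not hold for the 14 Ift members taken alone. Their count was 6 without TG female 1, 6 without TG females 1 and 4, and 7 without the 3 arrays. In males alone it was 8 and in females alone 12. Since the members other than Ift genes moved together, their counts are not those of independent genes.

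**Figure D4:**
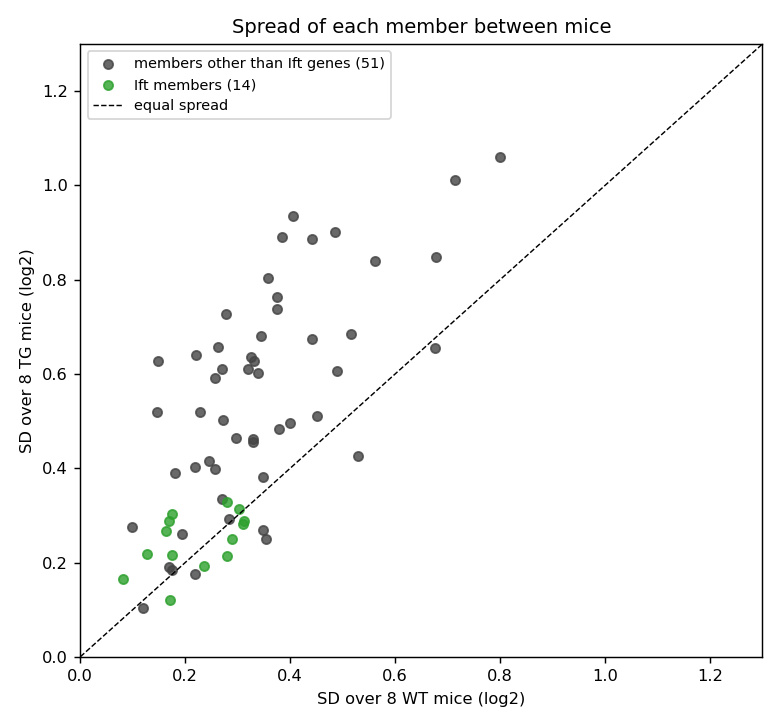
SD over the 8 TG mice (y axis) against SD over the 8 WT mice (x axis) of each member, both in log2 units, with the line of equal spread. Of the 65 members 53 lie above the line, 45 of them other than Ift genes.

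The axonemal members rose and fell together from mouse to mouse. After the mean of each of the 4 groups was taken out, the correlation of each of the 51 members other than Ift genes with the mean of the other such members over 16 mice had a median of 0.76, and 30 of 51 had an r above 0.7, compared with 3.54% of all genes. The highest were heavy chains, with Dnah5 at 0.98, Dnah10 at 0.96 and Dnah9 at 0.94, followed by Cfap45, Cfap126, Dnah2 and Tekt1 at 0.92 to 0.93. The points share the array and its normalisation, and the correlations are a description. For the 28 members with a mean above 8 the median was 0.85, and for the dimmer 23 it was 0.59. At the other end, 11 of 51 had an r under 0.3, among them Dnah14 (-0.73), Dnah8 (-0.67), Dnah1, Cfap74, Tekt5 and Cfap221, together with Cfap97 (0.17). The 2 members that passed were thus not those most like the rest, Dnaaf2 having an r of 0.50. Several of the low values rest on uncertain readings. Dnah1 had a mean of 3.77, under the 4.09 that Uty reached in a female, and Cfap221 one of 4.12. For Cfap74 the feature used had a mean of 12.88 and the dimmer ones 2.93 to 5.09. For Dnah8 it had 9.76 and the dimmer ones 4.02 and 2.76. Whether these genes run against the rest is therefore not known.

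Ift members followed this shared pattern less closely, with a median r of 0.41 and only Ift74 (0.81) and Ift122 (0.72) above 0.7, and Ift20 at -0.49. Without TG female 1 the medians were 0.68 for the members other than Ift genes and 0.20 for the Ift members, and 2.63% of all genes had an r above 0.7. Without both TG female 1 and TG male 2 they were 0.64 and 0.39. Within WT mice alone the medians were 0.56 and 0.19, and within TG mice alone 0.87 and 0.64, each over 8 mice.

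**Figure D5:**
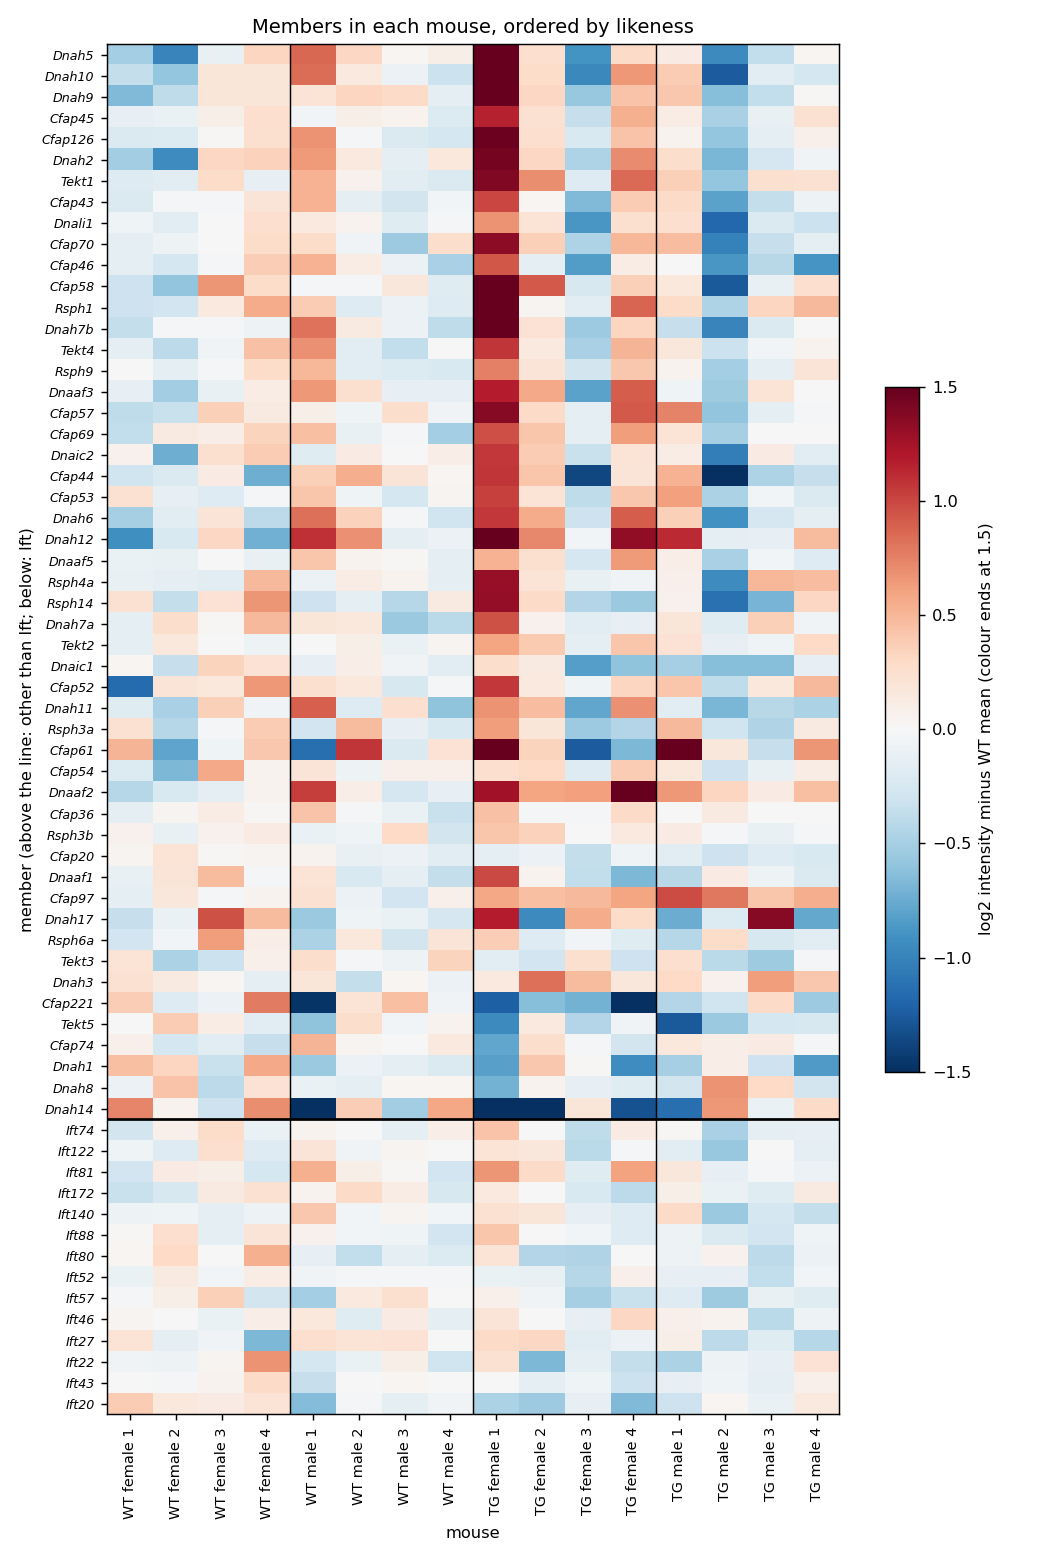
Log2 intensity of each member (rows) in each mouse (columns) minus the mean of the 8 WT mice, with colours ending at 1.5 log2 units. Members other than Ift genes stand above the line, ordered from the highest r (Dnah5, 0.98) to the lowest (Dnah14, -0.73), and Ift members below it; TG female 1 is high and TG male 2 and TG female 3 are low over most of the upper rows.

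The genes outside the list that followed the members most closely were Clic6, a chloride channel protein, and 1700016K19Rik, both with an r of 0.98 over 16 mice, then Elapor1 (0.97), Lrrc23, a radial spoke protein, and Cdhr4 (0.96 each), Lrig1 (0.95) and Ccdc24, Anxa8, Cyp2s1 and Ccdc180 (0.94 each). Of these 10 genes, Elapor1 was also higher in TG mice (0.65, limma, adjusted p = 0.019) and the others did not pass. Foxj1 moved with the members as well. Its r with the mean of the 51 members was 0.89 over all 16 mice (Spearman's rho 0.83), 0.71 without the 2 mice with the most extreme Foxj1, 0.74 within WT and 0.95 within TG mice. TG female 1 had the highest Foxj1 at 11.05 and TG male 2 the lowest at 8.99, while the genotypes differed by only 0.23 ± 0.23 (SE, limma, adjusted p = 0.555). Some markers of other airway cells also moved with the members. Within TG mice the r was 0.86 for Trp63, 0.64 for Clca1 and 0.62 for Scgb3a2. It was 0.46 for Krt14, 0.40 for Scgb1a1 and 0.26 for Cyp2f2. Within WT mice it was 0.77 for Scgb3a2, 0.38 for Trp63 and -0.10 to 0.24 for the others. Over all 16 mice these markers had an r of 0.13 to 0.52.

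The members were also set against the dimmer Fosl2 feature, a comparison chosen after the values were seen, and whether this feature measures the amount of transgene was not tested. On it, TG female 1 had 10.66, TG female 4 had 9.66, TG male 1 had 8.38, TG female 2 had 7.93, TG female 3 had 7.45, TG male 2 had 7.38, TG male 3 had 7.30 and TG male 4 had 6.56. Over these 8 TG mice, its r with the mean of the 51 members was 0.81 (rho 0.76), and 27 of 51 had an r above 0.7, compared with 10.9% of all genes. Without TG female 1 the r was 0.56 with 10 of 51 members (19.6%) above 0.7, compared with 10.9% of all genes. Without TG females 1 and 4 it was 0.38 with 2 of 51 (3.92%), where 7.69% of all genes lay above 0.7. In the 4 TG males alone it was 0.28 with 4 of 51 (7.84%), where 16% of all genes did. Over the 8 WT mice, which carry no transgene, the r was 0.71 (rho 0.64), with 14 of 51 members above 0.7 compared with 6.38% of all genes. Most of these WT values lay where a feature without its transcript can read. The brighter Fosl2 feature, which did not pass between the genotypes, had an r with the mean of the 51 members of 0.62 in TG mice. In WT mice its r was 0.68, and over all 16 mice 0.54.

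Marker lists of airway cells were read beside the members. Of 20 markers of ciliated cells none was higher, 1 was lower and 19 did not pass, with a median difference of 0.18 over the list. The mean over the list was 10.49 to 11.13 in WT and 10.24 to 11.75 in TG mice. Tppp3, a tubulin polymerisation protein, was at 14.84 to 15.01 in WT and 14.17 to 14.79 in TG mice, so that all TG mice lay below all WT mice, although near the top of the scale (-0.33 ± 0.11, limma, adjusted p = 0.048). Of 10 club cell markers none passed, and their mean was 11.82 to 12.38 in WT and 11.84 to 12.48 in TG mice. Of 10 markers of goblet and basal cells 3 were higher, namely Clca1 (5.96), Krt14 (3.71) and Trp63 (0.75, adjusted p = 0.003), and none was lower, where 6.05% of all genes were higher and 7.08% lower. Their mean was 5.84 to 7.66 in WT and 7.52 to 11.16 in TG mice, with Krt5, a defining basal keratin, at 3.99 in WT and 3.88 in TG mice. The part of these cells in the values of the members was not tested.

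Other parts of the ciliary machinery were read from lists of genes that are not members, beside 13.1% of all genes that passed (6.05% higher, 7.08% lower). Among 13 motor genes of ciliary transport 3 were higher and none was lower. Wdr60, an intermediate chain of the retrograde motor dynein-2, rose from 8.26 ± 0.26 (SD, n = 8) in WT to 9.24 ± 0.45 (n = 8) in TG mice (0.98 ± 0.18, limma, adjusted p = 0.003), with the lowest TG mouse at 8.86 and the highest WT mouse at 8.58. Kif3a, a motor subunit of the kinesin-2 that drives outward transport, rose by 0.48 ± 0.09 (SE, adjusted p = 0.005), from 9.29 to 9.61 in WT to 9.76 to 10.23 in TG mice, again without overlap. Kif3c rose by 0.55 (adjusted p = 0.013). Among 12 transport genes named outside the Ift symbols Hspb11, the gene of IFT25, fell by 0.33 (adjusted p = 0.030) and the other 11 did not pass, and among 12 genes of the BBSome, a cargo adaptor of the transport trains, Bbip1 fell by 0.49 (adjusted p = 0.049). Among 16 genes of the transition zone, the gate at the base of the cilium, Cc2d2a rose by 0.53 (adjusted p = 0.020) and Ahi1 by 0.44 (adjusted p = 0.048).

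Of 55 axonemal genes under other symbols 1 was higher, 1 was lower (Tppp3) and 53 did not pass, with a median difference of 0.02 as among the members. Spef1, a microtubule bundling protein of the central apparatus, had 10.73, 10.94 and 11.18 in WT and 11.24, 11.54 and 12.01 in TG mice, without overlap (0.65 ± 0.11, limma, adjusted p = 0.003). Hydin, a giant protein of the central pair, had 5.87, 6.66 and 7.01 in WT and 6.47, 6.83 and 8.34 in TG mice and did not pass (0.44 ± 0.23, adjusted p = 0.228), with TG female 1 the highest. Of 26 regulators of the multiciliated programme and of the Notch pathway, which restrains it, 4 were higher and 1 was lower, where 6.05% and 7.08% of all genes were. The Notch ligands Dll1 (1.56 ± 0.23, adjusted p = 0.001) and Jag2 (0.82 ± 0.17, adjusted p = 0.006) and the receptors Notch1 (1.89 ± 0.45, adjusted p = 0.015) and Notch3 (0.42 ± 0.12, adjusted p = 0.038) were higher, and Cdc20b, a gene of centriole amplification, was lower at a dim level (4.23 in WT and 3.39 in TG mice, adjusted p = 0.048). Dll1 separated the genotypes, with WT mice at 6.53 to 8.18 and TG mice at 8.33 to 9.64, while Foxj1 and the remaining regulators did not pass. These genes are found in many cell types of the lung, and the cells that carried the change cannot be named from whole lung RNA.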

How the data were processed

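Lung RNA of 16 mice was amplified, labelled and hybridised to single-colour Agilent arrays, 1 array per mouse. Per the labels and the methods, background correction and quantile normalisation with limma came before deposit, and the deposited values are log2 intensities from 1.77 upwards. Not given in the sources used here are the kind of background correction, the authors' limma version and the genome build. The number of arrays, and not a read depth, limits the precision. Of 62976 features, 43941 had a gene symbol, which was updated through the accession or synonyms in RefSeq, and 19035 without one were left out. Each of 24306 genes was read from its brightest feature by the mean over all mice. Genes were tested with limma 3.58.1 in R 4.3.3, with a mean for each of the 4 groups and the contrast of the TG with the WT means, and p-values were adjusted over all genes (Benjamini-Hochberg). The procedure was checked on simulated data. Alternatives were other models, features, filters, normalisations, thresholds and sets of mice. Since quantile normalisation forces equal distributions, a shift common to most genes cannot be seen, and values near the top of the scale are compressed.

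The members, the gene lists and the tests were chosen with earlier results of these data known. All members are accounted for by counts and ranges. Named with values were members that passed or separated the genotypes, in each role the brightest and the most changed, the largest that did not pass, those whose features disagree, in each list up to 4 genes by smallest adjusted p, Foxj1 and Fosl2, and the 10 other genes most like the members. Dnah5, Dnah9, Dnah10, Hydin and further genes named for their correlation were chosen after their values were seen, as were the comparisons of spread, of likeness over subsets of mice and with Fosl2.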

Additional observations from a re-analysis of the deposited data

Results flagged for a closer look

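In groups of 8 mice, 6 of 46 tests found a single mouse far from the others of its genotype, where chance gives about 1 in 20. Of these, 5 concerned WT male 1. It was lowest among WT mice in Cfap221 (3.0, the nearest mouse at 4.27) and in Ift43 (11.12, the nearest at 11.45), and highest in Dnaaf2 (7.91, the nearest at 6.97), Dnaaf5 (9.24, the nearest at 8.88) and Dnah7b (9.47, the nearest at 8.79). For the mean over the Ift members, TG female 1 was highest among TG mice at 9.82, the nearest at 9.59.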

How the results depend on the processing

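Of the members, 2 were higher and 0 lower in TG mice. The higher count was 1 with genotype alone in the model, with the mean of all features of a gene and at an adjusted p under 0.01, and 1 to 3 when single mice were left out. It was 1 without any 1 of the 9 mice named with Dnaaf2, and 3 without WT male 1. Over all genes the higher count was 1471 with all mice, 1007 to 1234 without any 1 of those 9 mice, and 1887 without WT male 1. The lower count was 2 with the mean of all features, 1 with the feature of largest variance, without the dimmest 50% of genes, with array weights and without the 3 arrays that stood apart, and 0 to 2 when single mice were left out (2 without WT male 1). With the feature of largest variance, Cfap97 had a difference of -0.36 (adjusted p = 0.248). Over 31 alternatives the adjusted p of Cfap97 ran from 5.8e-04 to 0.534 and that of Dnaaf2 from 0.004 to 0.149, where the call was lost in 11.

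In females, 3 members were higher, with 1 when the sex was fitted alone and without the 3 arrays, 0 without TG females 1 and 4 and at an adjusted p under 0.01, and 1 to 10 when single mice were left out. It was 1 without WT female 1, WT female 4, TG female 1 or TG female 4, and 10 without TG female 3. Over all genes the higher count in females moved as well. It was 1737 with all mice, 1026 to 1130 without any 1 of these 4 mice, 213 without TG females 1 and 4, and 2220 without TG female 3. The 2 lower members in females became 4 with the feature of largest variance. Their count was 1 without the dimmest 50%, a filter that takes out Cfap221, and 1 with the Ift genes left out, which takes out Ift20. Both of these drops follow from the filters themselves. The lower count was 0 without the 3 arrays, without TG females 1 and 4 and at an adjusted p under 0.01. It was 0 to 3 when single mice were left out (0 without WT female 1 or TG female 4, and 1 without WT female 4 or TG female 1). In males, the 1 higher member became 0 with the mean of features, the feature of largest variance, median centring, cyclic loess, robust variances, the sex fitted alone, without TG females 1 and 4 and at an adjusted p under 0.01, and 0 or 1 when single mice were left out (1 only without WT male 1 or TG male 3).

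Same-numbered mice did not deviate together (correlations -0.05 to 0.12, 4 of 16 mice closest to their own number), so no pairing by replicate number was seen. Whether mice shared a litter or batch was not tested. With the replicate block, 2 members were higher and 0 lower between the genotypes, and the count in males fell from 1 to 0. With the replicate block within sex, the counts were 1 higher and 1 lower in females and 0 in males. The causes of these changes were not tested. The difference of the mean over the members was -0.11 to 0.16 over 28 alternatives. No alternative gave a member with a different effect in the sexes or, in WT mice, a difference between them.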
